A study of Mus musculus with 19 samples.

Results

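The conjugation families of drug and hormone metabolism were followed across kidney and liver: the glutathione S-transferases (GST), the UDP-glucuronosyltransferases and their relatives (UGT), and the cytosolic sulfotransferases (SULT). Members were the protein-coding genes of the count table whose symbol starts with Gsta, Gstm, Gstp, Gstt, Gstk, Gstz or Gsto and a digit, with Ugt1a, Ugt2a, Ugt3a or Ugt2b, or with Sult and a digit from 1 to 4. Symbols came from matching the table's gene identifiers to GENCODE release M21. The annotation holds 61 such genes, and 47 of them are among the 26506 genes of the table: 19 GST, 18 UGT and 10 SULT genes. The other 14 (Gstp1, Gstp2, Gstp3, Sult1c1, Sult2a1, Sult2a2, Sult2a4, Sult2a5, Sult2a6, Sult3a1, Sult3a2, Ugt1a8, Ugt2a1 and Ugt2a2) were not analysed here.

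As background, conjugation enzymes attach a polar group to drugs, steroids, bilirubin, bile acids and reactive products of metabolism, so that the product can leave the cell on a transporter and be excreted in bile or urine. GST enzymes add glutathione, and the conjugate is later trimmed to a mercapturate, a step for which the kidney tubule is known. UGT enzymes of the UGT1A and UGT2B classes transfer glucuronic acid, UGT3A enzymes use other sugars, and SULT enzymes transfer sulfate from its activated form, PAPS. Liver and the proximal tubule of the kidney are the organs best known for these reactions.

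The study compared male mice that lacked macroH2A1.1, a splice form of the histone variant gene H2afy, with wild-type mice from the same matings. Exon 6b, which is used only in macroH2A1.1, was flanked by loxP sites and deleted in zygotes with soluble Cre enzyme, so it is not restricted to a tissue, and homozygous knockout (KO) and wild-type (WT) mice were bred from heterozygotes backcrossed to C57BL/6J. No other agent distinguishes the groups in the labels. A standard and a ketogenic diet are both named for the colony, without saying which mouse received which, and no ages are given. Poly(A)-selected RNA of homogenised whole tissue was sequenced from 5 KO kidneys (13, 14, 15, 16 and 18 in the labels), 5 WT kidneys (19, 20, 22, 23 and 24), 5 KO livers (the same 5 numbers) and 4 WT livers (19, 20, 22 and 24).

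Libraries held between 25919138 and 35131720 counts. H2afy, counted over all its exons and so over both splice forms, was lower in every KO library than in every WT library of the same tissue, with 36.0 to 44.3 CPM (counts scaled to library size) in KO and 48.8 to 67.0 in WT kidneys, and 59.6 to 72.8 in KO and 73.8 to 121 in WT livers. Its log2 fold change was -0.58 (SE 0.097, adjusted p = 0.14, edgeR) in kidney and -0.61 (SE 0.13, adjusted p = 0.38) in liver, and over the alternatives run the adjusted p ranged from 9.14e-05 to 0.456 and from 0.0212 to 0.998. The gene total does not check the deleted exon itself. Hepatocyte markers and those of the S1 and S2 proximal tubule followed the labels. The summed level of 10 hepatocyte genes was between 76.5 and 126 CPM in kidneys and at least 146500 in livers. That of 7 S1 and S2 genes was at least 20560 in kidneys and at most 4.38 in livers. Other lists were less specific: 6 genes of the S3 proximal tubule summed to 2484 to 2995 CPM in kidneys and 517 to 866.5 in livers. The 5 bile duct cell genes ran against the labels, at 593 to 738 CPM in kidneys and 64.5 to 101 in livers. Single libraries stood apart in traces of other tissue: KO kidney 13 held albumin (Alb) at 30.4 CPM against 3.64 to 7.004 in the other kidneys, and KO kidney 16 held adrenal cortex genes at 170 CPM in sum against 3.504 to 5.21. Skeletal muscle genes summed to 1.48 to 18.1 CPM in KO and 1.67 to 3.31 in WT livers, with 5 of 5 such genes at an unadjusted p under 0.05 and none called.

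Promoter sequences are shown first for a trio of neighbouring UGT2B genes on chromosome 5 that are close copies of each other and yet were used in opposite tissues, and then for their neighbours Ugt2a3 and Sult1d1, the members with the smallest p-value for the knockout in kidney and in liver. Each is the sequence just before the RefSeq start in GRCm38.p6, 5′ to 3′ on the minus strand, ending before the GENCODE gene where that starts earlier. The windows are chr5:87140341-87140540 for Ugt2b5, chr5:87424204-87424403 for Ugt2b38, chr5:87254805-87254988 for Ugt2b37, chr5:87337196-87337395 for Ugt2a3 and chr5:87569028-87569206 for Sult1d1. Ugt2b5 was the main UGT2B transcript of liver, and Ugt2b38 and Ugt2b37 were the UGT2B genes higher in kidney. Capitals mark the bases of Ugt2b38 and Ugt2b37 that do not match Ugt2b5 in a pairwise alignment.
Ugt2b5: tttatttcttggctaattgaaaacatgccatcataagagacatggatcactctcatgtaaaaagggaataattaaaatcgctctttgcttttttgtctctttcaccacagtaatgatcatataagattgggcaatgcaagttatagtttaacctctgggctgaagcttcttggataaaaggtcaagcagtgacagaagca
Ugt2b38: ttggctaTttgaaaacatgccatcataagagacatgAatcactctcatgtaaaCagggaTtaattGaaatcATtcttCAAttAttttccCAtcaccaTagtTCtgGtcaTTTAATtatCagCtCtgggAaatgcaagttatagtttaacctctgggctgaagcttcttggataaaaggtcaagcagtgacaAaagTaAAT
Ugt2b37: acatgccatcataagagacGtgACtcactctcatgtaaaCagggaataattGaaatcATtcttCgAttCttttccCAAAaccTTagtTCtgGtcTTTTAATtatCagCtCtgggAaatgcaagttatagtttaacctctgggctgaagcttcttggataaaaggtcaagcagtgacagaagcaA
Capitals in the next pair mark GTTAAT, a short pattern that both windows hold and that was searched in all promoters.
Ugt2a3: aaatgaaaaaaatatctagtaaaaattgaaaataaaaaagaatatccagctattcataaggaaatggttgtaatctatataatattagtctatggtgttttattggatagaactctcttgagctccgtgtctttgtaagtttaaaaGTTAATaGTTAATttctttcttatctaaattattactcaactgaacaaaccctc
Sult1d1: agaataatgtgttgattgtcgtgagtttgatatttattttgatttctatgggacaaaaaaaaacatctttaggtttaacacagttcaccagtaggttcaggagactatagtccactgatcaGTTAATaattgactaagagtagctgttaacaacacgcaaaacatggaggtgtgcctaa

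Most members differed in level between liver and kidney, and the gene highest per length differed between the organs in GST alpha, SULT1, SULT2, UGT1A and UGT2B, but not in the other classes. In WT mice 42 of the 47 members had enough counts to be tested, and 41 differed between the tissues at an adjusted p under 0.05 in edgeR's quasi-likelihood test: 27 were higher in liver and 14 in kidney. Over all genes tested 75.4% were called, 33.9% as higher in liver and 41.6% as higher in kidney, so that a call alone was common and the lean of the members was towards the liver. With a difference of at least 4-fold also required, 23 members were higher in liver and 9 in kidney, against 8.21% and 18.5% of all genes (26.7% in either direction). The libraries of the tissues did not overlap for 41 of the 42, against 66.3% of all genes. The median log2 kidney-to-liver ratio was -2.49 over the members tested and 0.14 over all genes. In bulk tissue, fewer cells of a type and less RNA per cell cannot be told apart, so these are differences between whole organs.

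The KO mice, which share no library with the WT contrast, gave the same picture. There 41 members were tested and 40 called, 27 higher in liver and 13 in kidney, where 73.8% of all genes were called (33.9% and 39.8%). With at least 4-fold required, 24 were higher in liver and 8 in kidney, against 8.6% and 17.7% of all genes, and the libraries did not overlap for 38 of the 41, against 61.4%. All 40 members called in KO mice were called in the same direction in WT mice. The member that missed the threshold in both was Gstt3, a theta-class GST, with a log2 ratio of -0.10 in WT and -0.52 in KO mice. Scaling by library totals instead of the trimmed mean moved the median log2 ratio of all genes from 0.14 to 1.03 in WT mice, and Gstt3 was the 1 member whose direction turned, to 0.79 with an adjusted p of 0.00036 in WT and to 0.44 in KO mice. The 5 members not tested in WT mice (Gstt4, Sult1e1, Sult4a1, Ugt1a2 and Ugt1a6a) had means of at most 0.211 CPM in every group, and Sult2a3 was also not tested in KO mice.

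**Figure D1:**
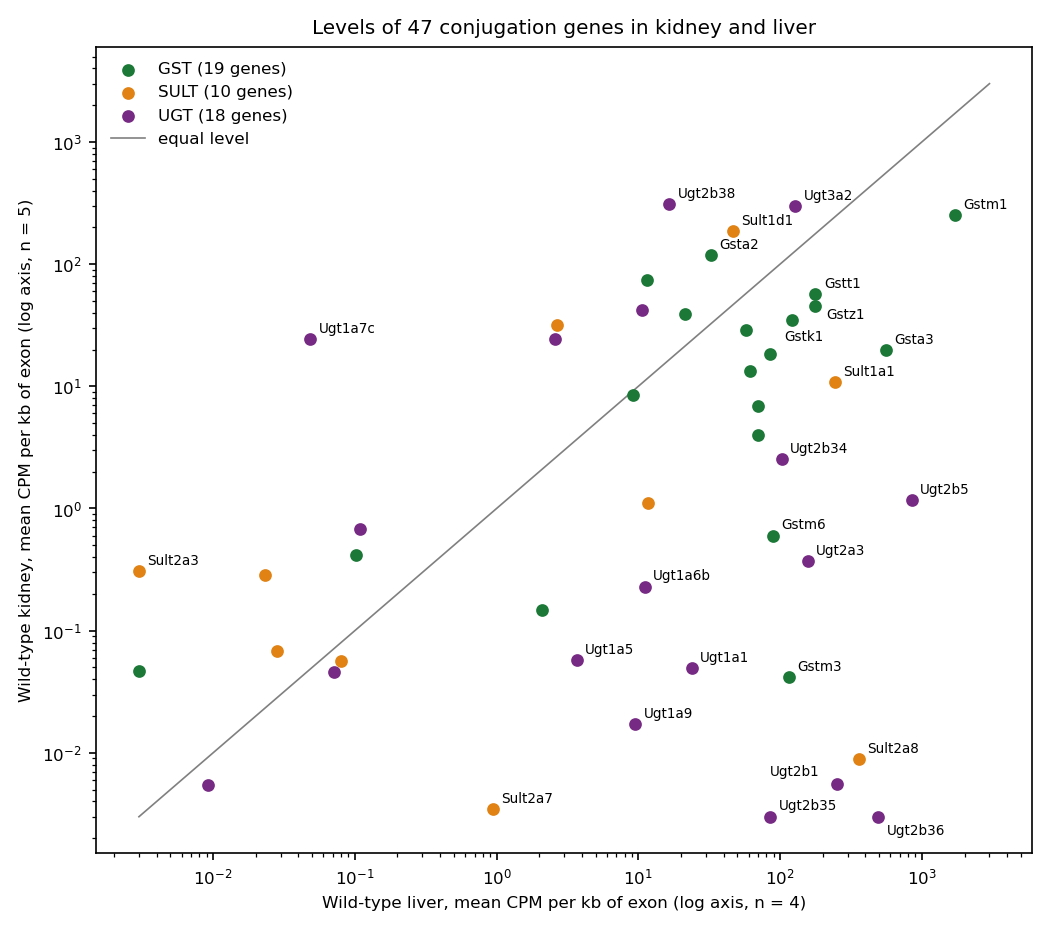
Mean level of the 47 members in WT liver (horizontal, n = 4) and WT kidney (vertical, n = 5), in CPM per kilobase of exon on log axes, coloured by family; levels under 0.003 are drawn at 0.003. Ugt2b38, Ugt3a2, Sult1d1, Gsta2 and Ugt1a7c lie above the line of equal level, and a column of genes at the lower right, from Ugt2b5 to Ugt2b36, is high in liver and near 0 in kidney.

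More members were expressed in liver. At a mean of at least 1 CPM, 37 of the 47 were present in WT liver and 28 in WT kidney, and 21 and 9 reached 100 CPM. Summed per kilobase of exon, the scale used wherever genes are compared with each other, the GST family reached 3366 ± 245 CPM per kb (SD, n = 4) in WT liver and 722 ± 58.7 (n = 5) in WT kidney. The UGT family reached 2139 ± 257 and 705 ± 44.7, and the SULT family 668 ± 60.8 and 231 ± 26.6. The ranges of the libraries did not overlap between the tissues for any of the 3 families. These counts and sums rest on TMM scaling, with factors of 1.31 to 1.39 in kidney and 0.67 to 0.76 in liver. Scaling by library totals would bring the organs closer, and the sums were not computed that way.

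The UGT2B class, whose enzymes glucuronidate steroids, bile acids and many drugs, showed such an exchange of members. Liver used several at once: Ugt2b5 stood at 846 ± 130 CPM per kb in WT liver, Ugt2b36 at 492 ± 63.9, Ugt2b1 at 251 ± 47.3, Ugt2b34 at 103 ± 17.2 and Ugt2b35 at 85.5 ± 16.7 (SD, n = 4). Kidney used chiefly Ugt2b38, at 311 ± 33.9 CPM per kb (SD, n = 5), which alone made up 91.8% of the summed UGT2B level there (89.2% to 93.3% by library). Ugt2b37 followed at 24.4 ± 7.65. Of the 7 UGT2B genes measured, 5 were higher in liver and 2 in kidney in both genotypes.

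Ugt2b38 (chromosome 5, 87409942 to 87424203, minus strand, GRCm38) had 619, 630.0, 585, 478 and 628 CPM in the WT kidneys 19, 20, 22, 23 and 24, and 517, 554, 310.3, 729.6 and 226 CPM in the KO kidneys 13, 14, 15, 16 and 18. In liver it had 22.6, 24.3, 31.7 and 46.2 CPM in WT 19, 20, 22 and 24, and 25.4, 26.1, 5.86, 46.1 and 3.72 CPM in the KO livers in the same order of numbers. Every kidney lay above every liver. The log2 kidney-to-liver ratio was 4.24 (SE 0.21, adjusted p = 1.1e-09, edgeR) in WT and 4.43 (SE 0.72, adjusted p = 0.0003) in KO mice.

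Ugt2b5 (chromosome 5, 87124960 to 87140318, minus strand) ran the other way. It had 1554, 1417, 1397 and 1919 CPM in the WT livers and 1417, 1432, 1343, 1543 and 1926 CPM in the KO livers, and between 1.44 and 5.04 CPM in all 10 kidneys. The log2 ratio was -9.501 (SE 0.19, adjusted p = 3.0e-15, edgeR) in WT and -8.87 (SE 0.28, adjusted p = 6.5e-13) in KO mice. Ugt2b37 (87240493 to 87254804) was higher in kidney, at 29.5 to 67.6 CPM in WT kidneys and 2.35 to 8.38 in WT livers, with a log2 ratio of 3.25 (SE 0.38, adjusted p = 4.6e-05).

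These opposite uses fell between near copies. The coding sequence of Ugt2b38 is 97.0% identical to that of Ugt2b5, and that of Ugt2b37 94.7% identical to that of Ugt2b5. Promoter identity was computed over the full 200 bases before each RefSeq start, and the Ugt2b37 window is printed without the last 16 of these. It was 88.4% between Ugt2b5 and Ugt2b38 (22 mismatches in 190 aligned bases), 86.9% between Ugt2b5 and Ugt2b37 (23 in 176) and 94.1% between the 2 kidney-leaning genes. A stretch near the end of the windows is the same in all 3, and most capitals lie upstream of it, in the middle. The last bases of the Ugt2b38 window differ again. How reads that fit more than 1 copy were counted is not stated in the labels or the submitters' notes, and the low value of each in the tissue where the other is high is therefore uncertain: the 1.44 to 5.04 CPM of Ugt2b5 in kidney stood beside 226 to 730 CPM of Ugt2b38 in the same libraries.

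The remaining UGT2B genes were close to absent from kidney. The 5 WT kidneys together held 1 count of Ugt2b36, 3 of Ugt2b1 and 1 of Ugt2b35, against 88528, 56440 and 24981 counts in the 4 WT livers. With so few counts the fitted log2 ratios of -16.9, -15.1 and -15.0 depend on the prior count and are no measure of size, and they served only to rank these genes. KO kidney 13 held most of the kidney counts of Ugt2b36 and Ugt2b1: Ugt2b36 was at 0.30 CPM there and at 0 in the other 4 KO kidneys, and Ugt2b1 at 0.33 against at most 0.027. Per 1000 CPM of albumin, Ugt2b36 stood at 9.95 in that kidney and at 10.3 to 13.1 in the 9 livers, and Ugt2b1 at 10.7 and at 5.81 to 10.4. Ugt2b35 stood at 2.3 and at 2.64 to 4.19, and Sult2a8, with 5 counts in that kidney, at 3.83 against at least 12.1 in every liver. Ugt2b34 was the exception, at 11.0 ± 2.60 CPM in WT kidney and 443 ± 74.3 in WT liver, a log2 ratio of -5.34 (SE 0.18).

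Along chromosome 5 the UGT2 genes form 1 cluster that continues into SULT1 genes. In order, Ugt2b34, Ugt2b1, Ugt2b35, Ugt2b36 and Ugt2b5 were higher in liver, Ugt2b37 in kidney, Ugt2a3 in liver, Ugt2b38 in kidney, Sult1b1 in liver and Sult1d1 in kidney, and Sult1e1 was not tested. Ugt2a3, the UGT2A gene of this cluster (87324972 to 87337195), thus lay between the 2 kidney-leaning UGT2B genes and was itself at 331 ± 14.99 CPM in WT liver and 0.79 ± 0.21 in WT kidney, a log2 ratio of -8.71 (SE 0.15, adjusted p = 8.8e-16, edgeR). Direction therefore changed from 1 gene to the next at 5 places between Ugt2b5 and Sult1d1. Both genotypes gave this order.

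**Figure D2:**
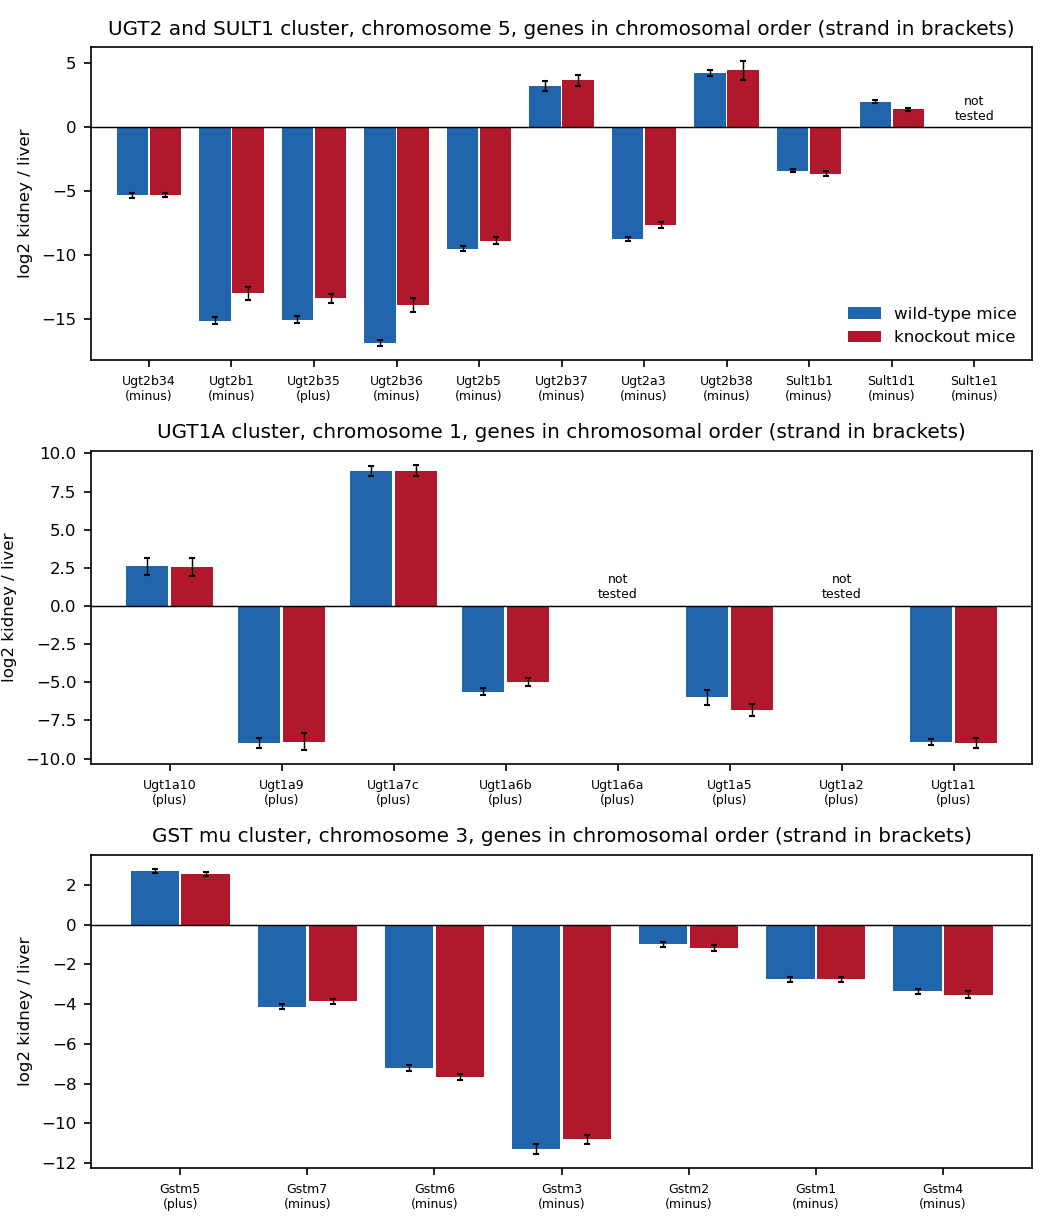
Log2 kidney-to-liver ratio (edgeR, bars with SE) of the members of the UGT2 and SULT1, UGT1A and GST mu clusters in chromosomal order, in WT (blue) and KO (red) mice. Positive bars are higher in kidney; bars beyond -10 belong to genes with 16 or fewer counts in all kidneys of a genotype and have no reliable size. Ugt2b37, Ugt2b38 and Sult1d1 stand up between liver-leaning neighbours, as do Ugt1a7c and Gstm5 in their clusters.

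The UGT1A genes share the later part of their coding sequence: each mRNA joins an own starting exon, which sets the substrates, to a common set of later exons. In the coding sequences at least 737 bases at the end are identical to Ugt1a1. The 5 WT kidneys held 21201 counts of Ugt1a7c and 8 of Ugt1a9 all the same, so reads from the common exons were not credited to every member, and levels per kilobase depend on which length is used. Kidney used Ugt1a7c, at 102 ± 21.04 CPM in WT kidneys (118, 89.0, 108, 73.4 and 124 in 19, 20, 22, 23 and 24) and 0.20 ± 0.15 in WT livers. Its log2 ratio was 8.87 (SE 0.33, adjusted p = 1.5e-10, edgeR) in WT and 8.86 (SE 0.37) in KO mice, and it made up 95.8% of the summed per-length UGT1A level in WT kidney.

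Liver used other UGT1A genes. Ugt1a1, the enzyme that conjugates bilirubin, stood at 52.9 ± 5.56 CPM in WT liver (47.9, 48.4, 58.8 and 56.5 in 19, 20, 22 and 24) and 0.109 ± 0.068 in WT kidney. Ugt1a6b, of the class that conjugates small planar phenols, stood at 26.5 ± 6.14 and 0.55 ± 0.13, Ugt1a9 at 20.8 ± 5.76 and 0.038 ± 0.033, and Ugt1a5 at 8.13 ± 1.12 and 0.13 ± 0.12 (SD, n = 4 livers and 5 kidneys). The log2 ratios were -8.93, -5.60, -8.96 and -5.99, all past the threshold in both genotypes. The sixth gene tested, Ugt1a10, was low in both tissues and higher in kidney, at 1.55 ± 0.73 against 0.25 ± 0.22 CPM. Per kilobase of all exons Ugt1a1 stood at 23.8, Ugt1a6b at 11.1 and Ugt1a9 at 9.503 in WT liver and Ugt1a7c at 24.3 in WT kidney; per kilobase of exon not shared with another gene these became 137, 28.2, 23.7 and 53.5.

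The copies in this cluster limit what can be said of the rarest members. Ugt1a6a was nearly absent, with at most 5 counts summed over any group, while Ugt1a6b, 98.4% identical in coding sequence, was well covered, so that the pair is uncertain. Ugt1a9 and Ugt1a10 are 95.6% identical over the coding sequence and 91.9% before the shared end, and they leaned to opposite tissues. Ugt1a7c is 90.2% identical to Ugt1a9.

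UGT3A genes were the only class with all its tested members higher in kidney. Ugt3a2 was the highest UGT gene per length in WT kidney after Ugt2b38, at 298 ± 11.1 CPM per kb in WT kidney and 128 ± 5.15 in WT liver, with a log2 ratio of 1.22 (SE 0.08, adjusted p = 3.6e-09, edgeR) in WT and 1.10 (SE 0.12, adjusted p = 7.0e-07) in KO mice. Ugt3a1 stood at 42.1 ± 4.44 and 10.6 ± 1.07 CPM per kb, a log2 ratio of 1.98 (SE 0.10). In every library Ugt3a2 lay between 721 and 992 CPM in kidney and between 358 and 433 in liver. The pair is 93.2% identical in coding sequence.

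Of the GST family, 13 of the 18 genes tested were higher in liver and 4 in kidney in WT mice. The mu class was led by Gstm1 in both organs, at 1708 ± 176 CPM per kb in WT liver and 253 ± 20.4 in WT kidney, and it was the highest of all 47 members in liver. It had 2848, 2350, 2273 and 2594 CPM in the WT livers 19, 20, 22 and 24 and 336 to 420 CPM in the WT kidneys, a log2 ratio of -2.76 (SE 0.10). On chromosome 3, 6 mu genes in a row on the minus strand (Gstm7, Gstm6, Gstm3, Gstm2, Gstm1 and Gstm4) were higher in liver. Their log2 ratios ran from -7.20 for Gstm6 to -0.997 for Gstm2, leaving aside Gstm3, whose few kidney counts give no reliable size. Gstm5, which opens the cluster on the plus strand, was higher in kidney, at 94.0 ± 9.85 against 14.7 ± 1.36 CPM, a log2 ratio of 2.68 (SE 0.10, adjusted p = 6.1e-12, edgeR). Gstm3 had 12 counts in the 5 WT kidneys together and 13472 in the 4 WT livers.

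The alpha class split between a kidney and a liver gene. Gsta2 had 181, 168, 104, 115 and 133 CPM in the WT kidneys 19, 20, 22, 23 and 24 and 50.01, 33.8, 31.2 and 38.6 CPM in the WT livers, so that every kidney lay above every liver, with a log2 ratio of 1.86 (SE 0.19, adjusted p = 2.3e-06, edgeR). It made up 75.3% of the summed per-length alpha level in WT kidney. Gsta3, which is also known as a steroid isomerase, made up 82.2% of that in WT liver, at 2413 ± 367 CPM (2258, 2497, 2018 and 2879 in the WT livers 19, 20, 22 and 24) against 86.2 ± 11.4 in kidney, a log2 ratio of -4.81 (SE 0.14). Gsta4, known for conjugating 4-hydroxynonenal from lipid peroxidation, had a log2 ratio of -2.22 (SE 0.11). Gsta1 shares 98.1% of its coding sequence with Gsta2 and was low, at 1.99 ± 0.65 CPM in liver and 0.142 ± 0.015 in kidney, so its direction, opposite to that of Gsta2, is uncertain.

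In the remaining GST classes 4 genes were higher in liver and 2 in kidney. Gstz1, which is also the maleylacetoacetate isomerase of tyrosine breakdown, had 902 ± 65.3 CPM in WT liver and 229 ± 11.3 in WT kidney, a log2 ratio of -1.98 (SE 0.08). Gstk1, Gsto1 and Gstt1 had ratios of -1.82, -2.19 and -1.64. Gstt2 leaned to kidney, at 162 ± 27.5 against 88.6 ± 27.4 CPM, with a log2 ratio of 0.87 (SE 0.21, adjusted p = 0.0027) in WT and 0.36 (SE 0.15, adjusted p = 0.038) in KO mice. Gsto2 was higher in kidney, at 0.985 ± 0.211 against 0.238 ± 0.167 CPM.

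The SULT family exchanged members as UGT2B did. Sult1d1, an enzyme known for catecholamine and eicosanoid sulfation in mice, had 364, 514, 451, 527 and 439 CPM in the WT kidneys 19, 20, 22, 23 and 24 and made up 80.7% of the summed per-length SULT1 level there. In the WT livers it had 109, 122, 112 and 117 CPM. The log2 ratio was 2.00 (SE 0.11, adjusted p = 4.7e-10, edgeR) in WT and 1.41 (SE 0.12, adjusted p = 6.7e-08) in KO mice. Sult1c2 was also higher in kidney, at 58.9 ± 5.18 against 4.90 ± 1.36 CPM.

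Liver used Sult1a1, the main phenol sulfotransferase, and Sult2a8, a bile acid sulfotransferase. Sult1a1 had 368 ± 31.1 CPM in WT liver and 16.4 ± 4.59 in WT kidney, a log2 ratio of -4.49 (SE 0.19). Sult2a8 had 1093, 1276, 1025 and 1361 CPM in the WT livers and 6 counts in the 5 WT kidneys together, and it made up 99.7% of the summed per-length SULT2 level in liver. Sult1b1, which sulfates thyroid hormones, had 32.6 ± 3.72 and 3.06 ± 0.30 CPM. Sult2b1, a cholesterol and pregnenolone sulfotransferase, was higher in kidney at 1.12 ± 0.26 against 0.092 ± 0.069 CPM.

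Sult2a3 was seen in kidney alone, with 66 counts in the 5 WT and 48 in the 5 KO kidneys and none in the 9 livers. Against a floor of 3 counts over the group of livers, its level was at least 9.2-fold higher in WT kidney and at least 9.56-fold higher in KO kidney. Its coding sequence is 94.4% identical to that of Sult2a4, a gene not analysed here, so the source of these counts is uncertain. Sult4a1 had at most 0.175 CPM on average in any group.

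**Figure D3:**
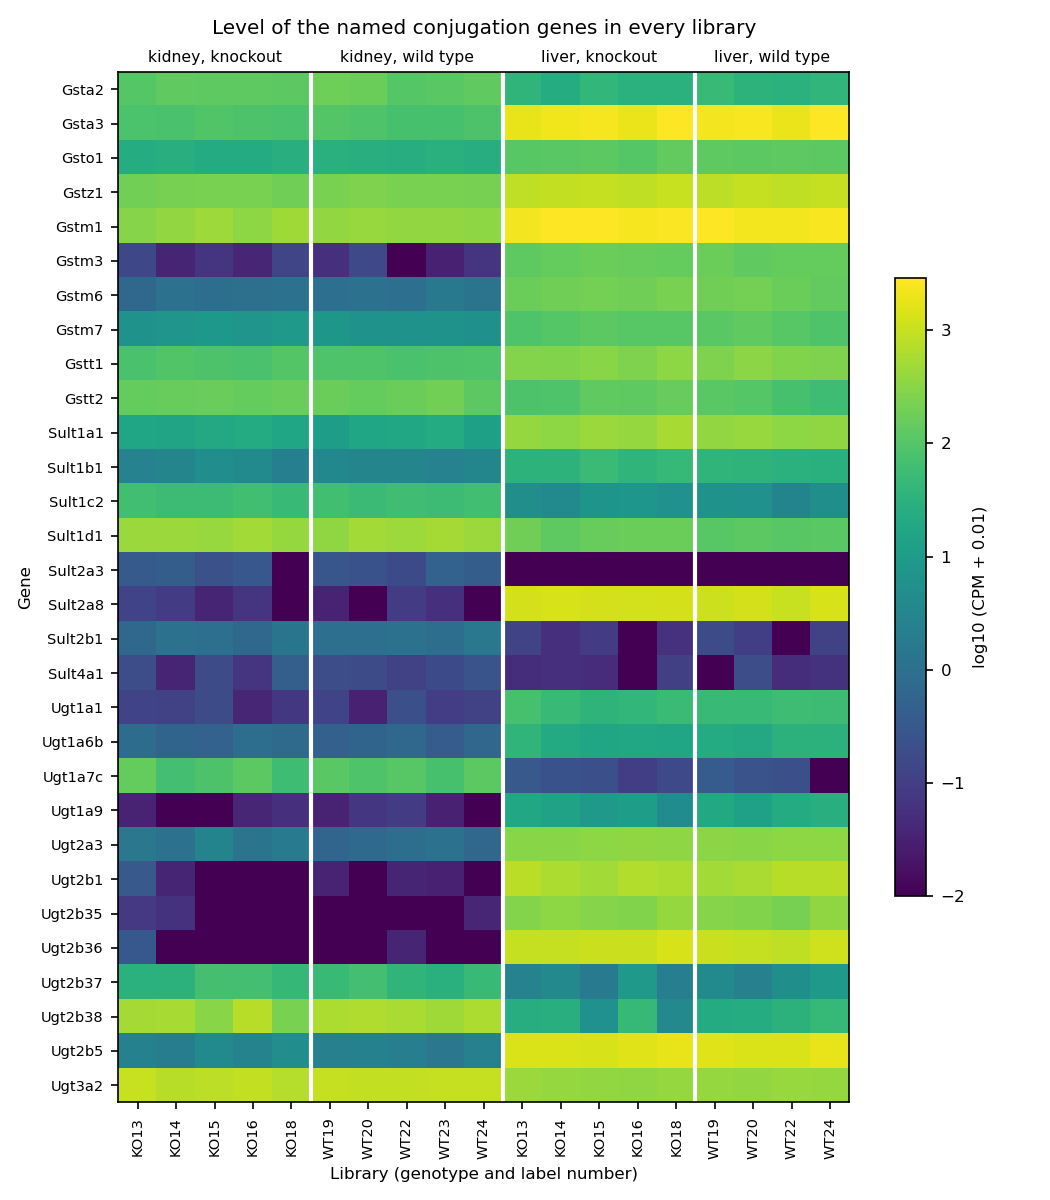
Level of the 30 named members in each of the 19 libraries, as log10 of CPM plus 0.01, with rows grouped by class and columns by tissue and genotype. The tissue contrast changes colour at the white line between kidney and liver for nearly every row, and little between the KO and WT columns of a tissue; KO kidney 13 is the column in which Ugt2b1 and Ugt2b36 rise from the bottom of the scale, to 0.33 and 0.30 CPM.

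Motif searches described the windows further. A window of 200 bases before the RefSeq start was available for 41 of the 47 members. GTTAAT, on either strand, was found in 9 of these 41 genes (22.0%; Gsta3, Sult1d1, Sult2a3, Ugt1a1, Ugt1a10, Ugt1a6a, Ugt1a9, Ugt2a3 and Ugt3a1) and in 5.89% of all 27025 genes with such a window. It was present in 4 of 12 members higher in kidney and 4 of 24 higher in liver. TGTTTAC, the core bound by forkhead factors, was present in 3 of the 41 members (7.32%) and 2.79% of all genes: in Ugt1a2, and in Ugt2b37 and Ugt2b38 but not in Ugt2b5, there on the strand opposite to that printed. Of the other 9 patterns searched on both strands, TGACNNNGC was found in 3 members (7.32%, against 9.77% of all genes). GCGTG was found in 7 (17.1%, against 27.3%) and AGTCCA in 11 (26.8%, against 10.6%). TATAAA was found in 3 (7.32%, against 11.7%), CCAAT in 15 (36.6%, against 32.8%) and TTCNNNGAA in 3 (7.32%, against 6.38%). CAAAGTCCA, which contains AGTCCA, was in no member and in 0.377% of all genes. A longer pattern that starts with GTTAAT and ends with TTAAC was found in Ugt3a1 in its form with 2 free bases (0.0333% of all genes) and in no member in its form with 1 (0.0111%). These patterns were chosen with the tissue results known, and a match is a description of letters.

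The genes that serve the conjugation reactions were divided between the organs as well. The counts of each list read against the 41.6% and 33.9% of all genes that were higher in kidney and in liver. Of 7 tested genes listed for glutathione supply, 2 were higher in kidney and 3 in liver in WT mice. The highest per length was Slc25a39 in both organs, then Gclc in kidney and Cth in liver. The UDP-glucuronic acid list held Ugp2, Ugdh and carriers of the Slc35 family, not all of which carry that sugar. Of its 6 genes 1, Slc35a3, was higher in kidney and 5 in liver, and Ugp2 and Slc35b1 were the highest per length in both organs. Of 11 genes of sulfate and PAPS supply and turnover 7 were higher in kidney and 4 in liver, led per length by Bpnt1 and Papss2 in kidney and by Suox and Slc26a1 in liver. The mercapturate pathway had 7 higher in each organ of 17 tested: Ggt1, which takes the glutamate off glutathione conjugates, had 891 ± 79.7 CPM in WT kidney and 0.124 ± 0.069 in WT liver, and Acy3, which removes the acetyl group from mercapturates, 1675 ± 153 and 103 ± 6.42. The N-acetyltransferase-like Nat8f2 had 40.6 ± 3.65 and 1274 ± 298, and it and Nat8f1 were the highest of the list in liver.

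Carriers and regulators differed between the organs as well. Of 11 efflux transporters 5 were higher in kidney and 3 in liver, led per length by Abcg2 and Abcc2 in kidney and by Abcb11, the bile salt pump, and Abcc6 in liver. Of 10 organic anion uptake carriers 5 were higher in each organ, led by Slc22a6 and Slc22a8 in kidney and by Slco1b2 and Slc10a1 in liver, with Slc22a6 at 652 ± 36.9 CPM in WT kidney and listed at 0 in all WT livers, and Slco1b2 at 1264 ± 131 CPM in WT liver and 0.032 ± 0.046 in WT kidney. Of 20 xenobiotic-sensing regulators 4 were higher in kidney and 13 in liver; Cebpa had 47.1 ± 4.71 CPM in kidney and 795 ± 60.3 in liver, and Hnf4a 570 ± 59.8 and 689 ± 171, which did not pass (adjusted p = 0.085, edgeR). Of 8 tested genes on a list of Gusb, sulfatases and related lysosomal or sulfatase-modifying genes, 4 were higher in kidney and 2 in liver. Arsb and Sumf1 led that list in kidney and Arsa and Naglu in liver. The steroid sulfatase gene Sts was not in the count table, so the list says little about removal of drug or steroid conjugates. Among 14 targets of xenobiotic receptors and NRF2 outside the families, 3 were higher in kidney, where Nqo1 and Txnrd1 led, and 7 in liver, where Cyp3a11 and Cyp1a2 led. Among 13 sex-biased liver genes 3 and 9 were higher, with Cyp2a4 and Cyp7b1 leading in kidney and Mup3 and Mup20 in liver. Of 22 other conjugating enzymes 6 and 13 were higher, led by Inmt and Acsm2 in kidney and by Mgst1 and Inmt in liver. No gene of these lists was called by edgeR between KO and WT mice in either organ. Slc35d2, of the UDP-glucuronic acid list, had a log2 fold change of 0.48 (SE 0.097, unadjusted p = 0.00016, adjusted p = 0.23, edgeR) in kidney. In liver its log2 fold change was 0.60 (SE 0.13, unadjusted p = 0.00043, adjusted p = 0.37, edgeR). Its KO libraries all lay above its WT libraries in both organs, as held for 0.261% of all genes in kidney and 0.747% in liver. Slc35d2 was singled out after its values were seen. Genome positions of the list genes relative to the targeted gene H2afy were not examined. Whether sequence inherited together with the deletion bears on the level of Slc35d2 was not tested.

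In kidney no member passed the threshold between KO and WT mice. Of the 47 members 32 were tested, 13 with a fold change above 0 (52.2% of all genes), and the log2 fold changes ran from -0.33 to 1.12 with a median of -0.05 (all genes 0.01) and a median SE of 0.13. None was called by edgeR's quasi-likelihood test, by DESeq2 or by limma voom; over all 17269 genes tested edgeR called 0.00579%. At an unadjusted p under 0.05 there were 2 members, Ugt2a3 and Ugt2b5 (2.95% of all genes). The 15 members not tested, among them Ugt1a1, Ugt2b1, Ugt2b35, Ugt2b36 and Sult2a8, were too low in kidney.

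Ugt2a3 had the smallest p in kidney. It had 0.60, 0.72, 0.95, 1.06 and 0.61 CPM in the WT kidneys 19, 20, 22, 23 and 24 and 1.47, 1.15, 2.93, 1.22 and 1.80 CPM in the KO kidneys 13, 14, 15, 16 and 18. The groups did not overlap, every KO kidney lying above every WT kidney, as was so for 0.261% of all genes in this direction (0.544% in either) and for no other of the 32 members. The log2 fold change was 1.12 (SE 0.28, unadjusted p = 0.001, adjusted p = 0.81, edgeR), and the adjusted p ranged from 0.0668 to 1 over the alternatives run. Without KO kidney 15, the highest, the log2 fold change was 0.85 (SE 0.25). Without KO kidney 13, which held albumin, it was 1.17, and without KO kidney 16, which held adrenal genes, 1.22; per 1000 CPM of albumin Ugt2a3 stood at 48.2 in KO kidney 13 and at 3.33 to 4.48 in the livers. In liver, where the gene is far more abundant, the groups overlapped, at 312 to 359 and 313 to 345 CPM.

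Ugt2b5 in kidney had 2.36, 2.47, 2.11, 1.44 and 2.50 CPM in WT and 2.54, 2.03, 4.06, 2.76 and 5.04 CPM in KO mice in the same order of numbers. The groups overlapped, and KO kidneys 15 and 18 were the high ones. The log2 fold change was 0.61 (SE 0.24, unadjusted p = 0.023, adjusted p = 0.9995), and 0.39 without KO kidney 18. In the same KO kidneys 15 and 18, Ugt2b38 was at its lowest, 310.3 and 226 CPM against 478 to 630.0 in WT, and its log2 fold change was -0.33 (SE 0.27) over the groups. The next in order of p, Gsto1, Gstm7 and Ugt1a6b, had log2 fold changes of -0.14 (SE 0.09), 0.21 (SE 0.13) and 0.42 (SE 0.27).

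In liver no member passed either. Of 37 members tested 20 had a fold change above 0, with a range from -0.86 to 0.51 and a median of 0.02 (all genes 0.00, median SE of the members 0.14). edgeR called 0.0% of the 14591 genes tested, voom called no member, and DESeq2 called 1, Sult1d1. At an unadjusted p under 0.05 there were 3 members, Sult1d1, Sult1b1 and Ugt1a9 (4.17% of all genes). The 6 SULT genes tested all had a fold change above 0, with a median of 0.29, where 51.3% of all genes did. The 3 GST theta genes tested also lay above 0, and the 4 GST alpha genes all lay below 0, with a median of -0.16. In kidney 2 of the 6 SULT genes tested lay above 0, with a median of -0.04, and the 3 GST alpha genes tested lay below 0. Such counts over a class were not tested.

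Sult1d1 had 109, 122, 112 and 117 CPM in the WT livers 19, 20, 22 and 24 and 189, 129, 153, 170 and 172 CPM in the KO livers 13, 14, 15, 16 and 18. Every KO liver lay above every WT liver, which held for 0.747% of all genes in this direction (1.62% in either) and for no other member tested. The log2 fold change was 0.51 (SE 0.11, unadjusted p = 0.00069, adjusted p = 0.45, edgeR); DESeq2 gave 0.51 with an adjusted p of 0.021, voom 0.47 with an adjusted p of 0.19, and the adjusted p ranged from 0.0212 to 0.998 over the alternatives run. The muscle genes named above summed to 18.1, 1.48, 8.08, 5.89 and 10.7 CPM in the same KO livers and to 2.86, 2.72, 1.67 and 3.31 in the WT livers. KO liver 14 had the lowest muscle sum of all 9 and the lowest Sult1d1 of the KO livers, at 129 CPM. Whether the muscle traces bear on the Sult1d1 level was not tested. Without KO liver 13, which had the highest muscle sum, the log2 fold change was 0.45 (SE 0.11). In kidney, where Sult1d1 is higher, KO and WT overlapped, at 389 to 502 and 364 to 527 CPM.

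The other SULT genes of liver differed less. Sult1b1 had 36.4, 34.97, 30.2 and 28.7 CPM in WT and 34.4, 34.2, 51.6, 38.03 and 45.8 CPM in KO livers, groups that overlapped, with a log2 fold change of 0.33 (SE 0.13, unadjusted p = 0.031, adjusted p = 0.9998). Sult1a1 had a log2 fold change of 0.21 (SE 0.13) and Sult2a8 of 0.11. Ugt1a9 pointed down, with 20.6, 13.1, 22.5 and 27.0 CPM in WT and 19.04, 13.7, 8.44, 11.2 and 4.504 CPM in KO livers. The log2 fold change was -0.86 (SE 0.36, unadjusted p = 0.037, adjusted p = 0.9998), and the groups overlapped, with KO 13 and KO 14 inside the WT range and WT 20 inside the KO range. Gstt2 had a log2 fold change of 0.44 (SE 0.23).

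**Figure D4:**
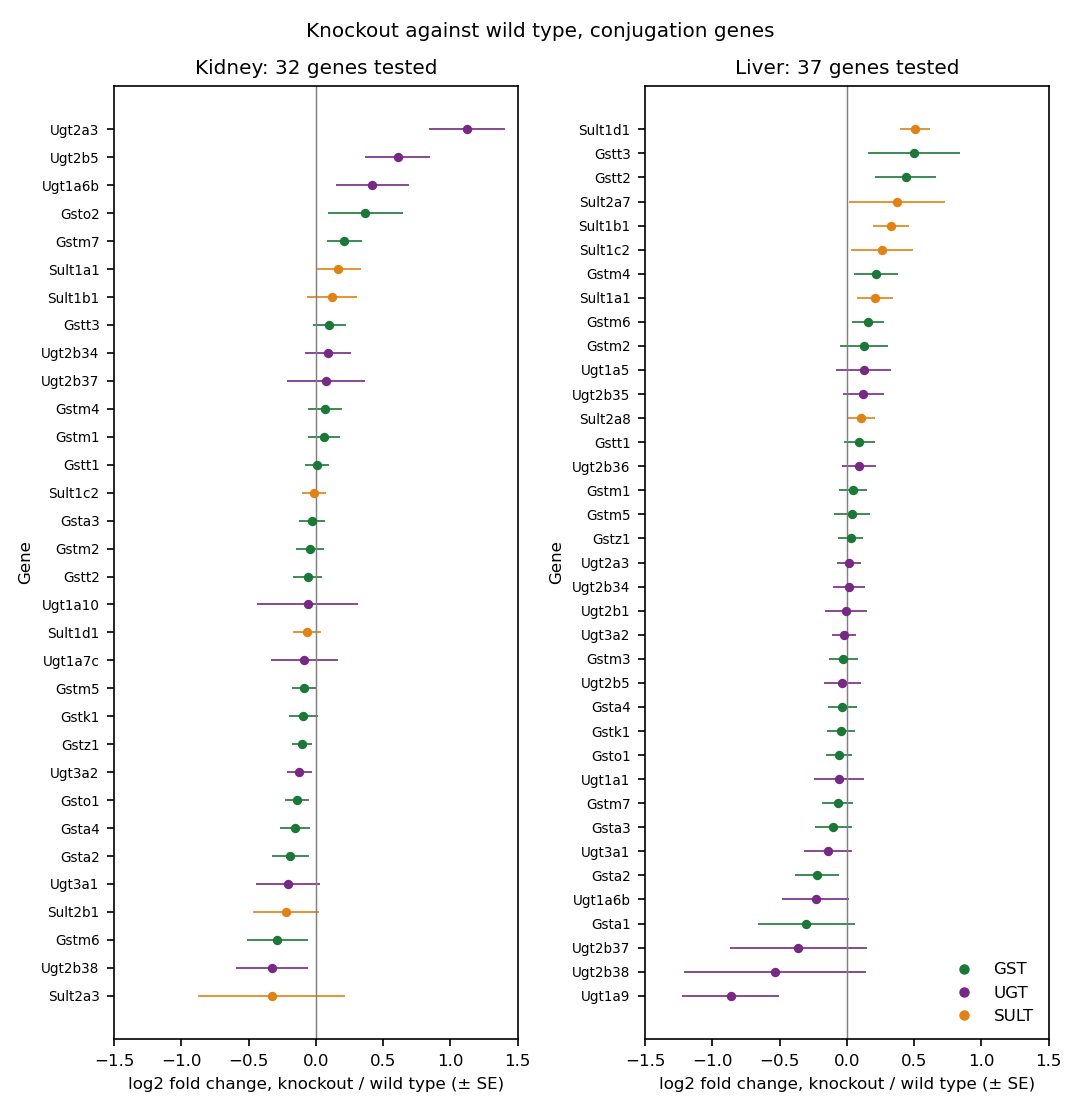
Log2 fold change between KO and WT mice with its SE for the 32 members tested in kidney and the 37 tested in liver, ordered by size and coloured by family. Most points lie within 0.3 of 0; Ugt2a3 in kidney (1.12) and Sult1d1 (0.51) and Ugt1a9 (-0.86) in liver stand farthest out in relation to their SE or in size, and none passed the threshold in edgeR.

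The difference of the knockout effect between the organs was tested in all 19 libraries together. Of 42 members tested none was called by edgeR, which called 0.0% of 18549 genes, and none by DESeq2 or voom. At an unadjusted p under 0.05 there were 5 members (4.12% of all genes): Ugt2a3, Sult1d1, Ugt2b5, Ugt2b36 and Gstm6. Liver minus kidney, the log2 difference was -1.10 for Ugt2a3 (SE 0.26, adjusted p = 0.67), 0.58 for Sult1d1 (SE 0.16, adjusted p = 0.84), -0.64 for Ugt2b5 (SE 0.28) and 0.45 for Gstm6 (SE 0.21). That of Ugt2b36, -2.92 (SE 1.35), rested on KO kidney 13 and was 1.28 without the libraries numbered 13. These differences share their libraries with the comparisons within each organ and add no new samples to them.

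**Figure D5:**
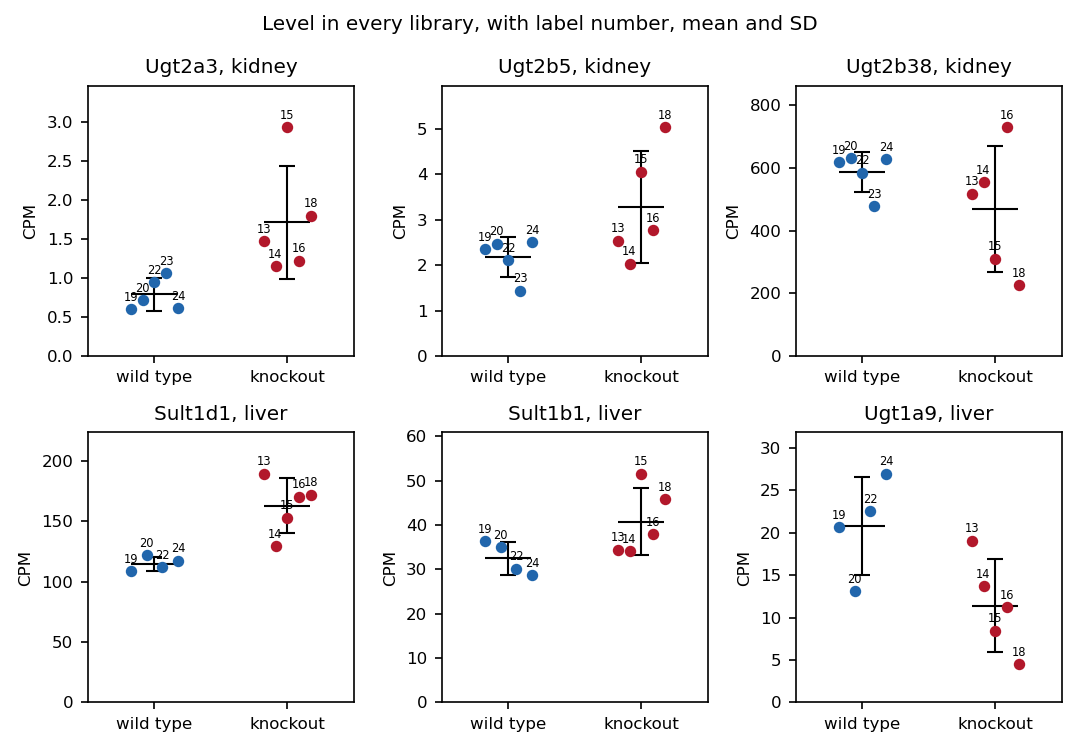
CPM of 6 members in every library of the tissue named, with the number of each label, for WT (blue) and KO (red); the horizontal bar is the mean and the whiskers the SD. Ugt2a3 in kidney and Sult1d1 in liver are the pairs of groups that do not overlap; Ugt2b38 is lowest and Ugt2b5 highest in KO kidneys 15 and 18.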

How the data were processed

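The authors deposited raw counts per gene for 10 kidney and 9 liver libraries in 1 table. Trim Galore, STAR, featureCounts, DESeq2 and the mouse build GRCm38 are named, without versions, in the submitters' processing notes; strand setting and treatment of reads with several matches are not given in the sources used here. Of 26506 gene identifiers 26417 matched GENCODE M21 and 89 did not. Counts were tested in R 4.3.3 with edgeR 4.0.16 (quasi-likelihood test, robust, TMM scaling, filterByExpr with its minimum count of 10, two-sided). In each comparison p-values were adjusted over all genes tested by Benjamini-Hochberg (threshold 0.05). DESeq2 1.42.0 and limma 3.58.1 were alternatives, and the code was tested on simulated data. Levels are CPM after TMM over all 19 libraries, divided by merged exon length where genes are compared. Libraries held 25919138 to 35131720 counts. The scaling factors were 1.31 to 1.39 in kidney and 0.67 to 0.76 in liver.

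The members, the gene lists and the motifs were chosen with earlier results of these data known. Named members are, in each class, the highest per length in each WT tissue, the 5 with the largest tissue difference in each direction, and the 5 with the smallest p in each knockout test; from each list the 2 genes highest per length in each WT tissue were named, except 1 gene that is not reported here. Other members are given for their place in a class or cluster. Within a tissue each sample is taken as a separate mouse, which the labels do not state in words, and p-values measure the spread between these samples. Kidney and liver samples share numbers that may mark the same mouse, which is not stated either. Alternatives were other scalings, no filter or a filter of 1 CPM, each label number left out in turn, numbers 16 and 24 left out together, 1 fit of all libraries and the number as a block. Promoter sequences are RefSeq's for GRCm38.p6. Identities come from pairwise alignment of the longest coding sequence of each gene in GENCODE.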

Additional observations from a re-analysis of the deposited data

Results flagged for a closer look

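The libraries of each of the 4 groups were examined for single values far from the rest, for the 30 named members, which makes 120 groups of 4 or 5 libraries. In 6 of them 1 library lay apart by Dixon's test at 95%, a rule that normally distributed values meet by chance in about 1 of 20 groups. That rate does not hold near 0: a group with counts in 1 library and 0 in the rest always meets the rule. Groups with the same value in every library, such as Sult2a3 at 0 in liver, could not be tested. In kidney, KO 13 was at 0.326 CPM of Ugt2b1 with the next KO kidney at 0.0267, and at 0.303 CPM of Ugt2b36 with the others at 0. WT 22 was at 0.0263 CPM of Ugt2b36 and WT 24 at 0.0278 CPM of Ugt2b35, each a single count beside WT kidneys at 0. In liver, KO 13 was at 37.7 CPM of Ugt1a6b with the next KO liver at 21.4, and KO 16 at 8.84 CPM of Ugt2b37 with the next at 3.67.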

How the results depend on the processing

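The counts of members called between the tissues and under the knockout stayed within 1.5 times under every alternative run, except that DESeq2 called 1 member in liver. Counts over all genes moved more. Against 1 gene in kidney and 0 in liver, DESeq2 called 15 and 42, voom 4 and 5, no filter 4 and 3, 1 fit of all 19 libraries 3 and 21, and leaving out numbers 16 and 24 gave 12 and 11. Leaving out 1 number at a time gave 1 to 10 genes in kidney (10 without 16, 7 without 24) and 0 to 7 in liver (7 without 16, 5 without 24). For the difference between the organs DESeq2 called 8 and leaving out 16 and 24 gave 4, against 0. With library totals 84.2% of the calls between WT tissues were higher in kidney, against 55.1% with TMM, and 84.5% against 54.0% in KO mice. Per kilobase of exon that overlaps no other gene, WT kidney levels were 51.3 for Gstz1 and 53.5 for Ugt1a7c, and WT liver levels 202 for Gstz1, 137 for Ugt1a1, 28.2 for Ugt1a6b and 23.7 for Ugt1a9. Leaving out each number in turn, the difference of Ugt2b36 between the organs ran from -4.14 to 1.28.

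With the label number as a replicate block, 41 members were called between WT tissues, 41 between KO tissues and 0 for the difference between the organs. Libraries sharing a number correlated over 0.1 in 7 of 9 pairs (0.072 to 0.39), and 7 of 9 correlated best with their own number, a hint from the data. KO and WT mice have different numbers, so no block was possible between them. Members under about 10 counts a library could not be tested.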

Other observations

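Ugt2b38 spread widely among the KO libraries. Its level was low in both organs in the libraries numbered KO 15 (310.3 CPM in kidney, 5.86 in liver) and KO 18 (226 and 3.72) and high in both in KO 16 (729.6 and 46.1). Over the 9 numbers present in both organs, kidney and liver deviations from the group means on the log2 scale had a Pearson r of 0.957 and a Spearman rho of 0.917. The exact permutation p, two-sided and exchanging numbers within genotype (2880 arrangements), was 0.0097 for r and 0.030 for rho, and 0.373 for r after adjustment over all 13847 genes tested. Without the numbers 16 and 18, r was 0.889, with KO 15 still included. The WT kidneys 19, 20, 22 and 24 lay close together, at 585 to 630 CPM, so r rests mostly on the KO numbers. This gene was singled out after its values were seen; an r of 0.9 or more occurred in 0.686% of genes, and 10.7% of genes had an unadjusted p under 0.05. The 27 members tested this way had a median r of 0.40, against 0.26 over all genes, and 2 of them had an unadjusted permutation p under 0.05. Whether a shared number marks 1 mouse is not stated in the labels.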
